A study of Mus musculus with 2 samples.

Results

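The natriuretic peptide system of the heart was followed here through 8 named genes out of 55536 annotated ones. They are the ligand genes Nppa, Nppb and Nppc, the receptor genes Npr1, Npr2 and Npr3, and the protease genes Corin and Furin. All were chosen by symbol, with earlier results of these data known. Their RNA was read in total RNA from the heart of adult males, 8 to 10 months of age, bred by crossing 5xFAD with CAST mice. 5xFAD is a line in which human amyloid precursor protein and presenilin carrying familial Alzheimer mutations are driven by the neuronal Thy1 promoter, and CAST is an inbred strain derived from wild mice. The labels do not say whether the animals carried the transgenes. There was 1 group of 2 libraries, called library 1 and library 2 after their replicate numbers, with no other genotype, age or treatment beside it. The libraries have separate tissue samples and the same donor identifier, so their spread describes these samples only and may be technical. Library 1 held 39819960 and library 2 held 37060119 expected counts. Markers of heart muscle were high in each, with Myh6, the main myosin heavy chain of adult mouse heart, at 6620 and 6911 TPM and Myl2, the ventricular light chain, at 7756 and 7359 TPM, a unit of transcript abundance explained with the levels.

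Natriuretic peptides are hormones that lower blood pressure and volume by raising cyclic GMP in their target cells. Atrial natriuretic peptide (ANP, from Nppa) is made mainly by atrial muscle, B-type natriuretic peptide (BNP, from Nppb) by atrial and stretched ventricular muscle, and C-type natriuretic peptide (CNP, from Nppc) chiefly by endothelium and other tissues. ANP and BNP act on the guanylyl cyclase receptor encoded by Npr1, CNP acts on that encoded by Npr2, and all bind the receptor encoded by Npr3, which lacks the cyclase and clears peptide from the circulation. Corin, a membrane protease of heart muscle, cuts the ANP precursor, and furin, a convertase of the secretory pathway, cuts the precursors of BNP and CNP.

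The peptides share a ring closed by a bond between a pair of cysteines, and this ring is what the receptors recognise. The coding bases of the ring are shown for Nppb and Nppc because they carry the likeness between a ligand that these hearts expressed and one at the limit of detection. Each line is read 5′ to 3′ from the GENCODE M21 transcript on mm10. The capitals mark the 17 codons from the first to the last cysteine of the ring, after 12 flanking codons in lower case and before the end of the coding sequence.
Nppb: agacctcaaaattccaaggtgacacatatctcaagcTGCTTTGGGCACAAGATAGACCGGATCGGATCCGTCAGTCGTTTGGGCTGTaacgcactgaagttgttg
Nppc: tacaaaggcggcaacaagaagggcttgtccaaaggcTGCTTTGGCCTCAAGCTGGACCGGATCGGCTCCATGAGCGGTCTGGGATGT

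The ring lies in exon 2 of 3 in both genes, on the plus strand at chr4:147986464-147986514 in Nppb and on the minus strand at chr1:86669667-86669717 in Nppc. The rings hold the same residue at 13 of 17 positions and the same base at 40 of 51. The tail after the ring has 6 codons in Nppb and 0 in Nppc.

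In spite of this likeness, the longest run of bases that transcripts of Nppb and Nppc have in common is 11, and the longest between any 2 of the 8 genes is 18, between Npr1 and Npr2. In the first of the authors' deposited quantifications the gene tables give a posterior SD of 0 for the expected count of each of the 8 genes in both libraries. In the second, the estimated counts of Npr2 and Npr3 in both libraries and of Furin in library 1 are not whole numbers, so reads of these genes may have been divided with other genes there.

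Levels are given as TPM, transcript abundance scaled for length and to a total of 1000000 per library, as mean ± SD (n = 2 libraries) unless a library is named. The authors deposited 2 quantifications of each library, a first in gene and transcript tables and a second in transcript tables only, summed per gene here. With detection set at 1 TPM or more in each library, 7 of the 8 genes were detected, as were 10754 of 22015 nuclear protein-coding genes. The exception was Nppc. The order of the mean levels was Nppa, Nppb, Corin, Furin, Npr2, Npr3, Npr1 and Nppc. Neighbours in that order did not overlap between the libraries, apart from Nppb and Corin in the first quantification. The summed level of the ligands was 661 TPM in library 1 and 883 TPM in library 2, that of the receptors 33.6 and 30.5 TPM, and that of the proteases 70.8 and 65.6 TPM. In this tissue the ligand transcripts thus outnumbered the receptor transcripts in both libraries, and Nppa alone held 80.6% and 86.0% of the summed level of the 8 genes.

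**Figure D1:**
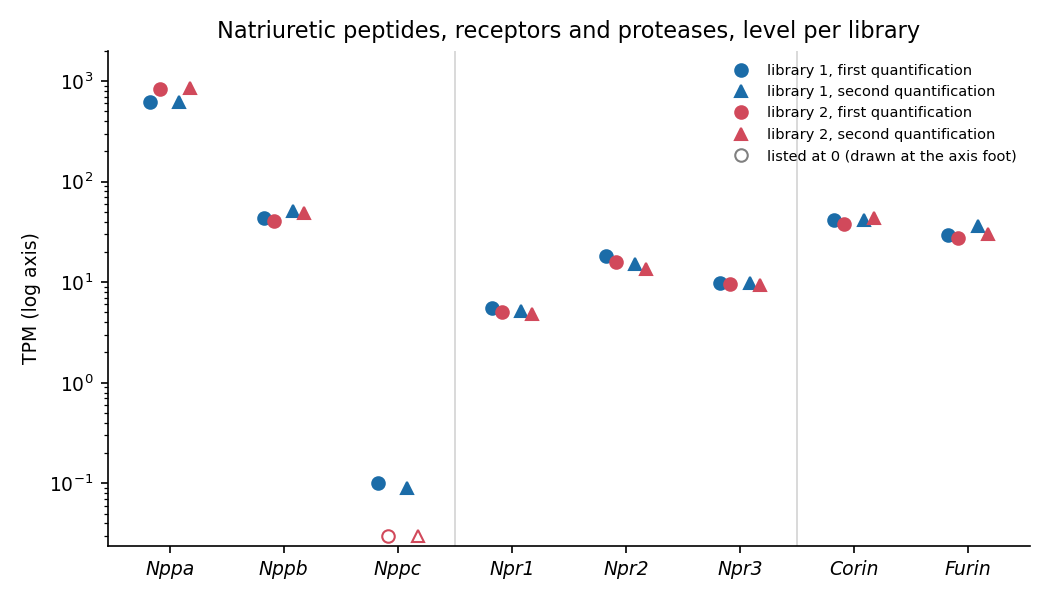
Level of each gene in TPM (log axis) in library 1 (blue) and library 2 (red), with circles for the first and triangles for the second quantification; open symbols at the axis foot are values listed at 0. Nppa stands at 615 to 859 TPM, more than any other of these genes, and Nppc at or below 0.10 TPM.

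Nppa was the only ligand among the most abundant messages of the heart. Its level was 617 TPM in library 1 and 842 TPM in library 2 (730 ± 159), from 15657 and 20102 expected counts, and the second quantification gave 615 and 859 TPM. That placed it at rank 46 of 22015 nuclear protein-coding genes by mean TPM, at 0.189% and 0.257% of their summed TPM. The gene has a single annotated transcript of 865 bases at chromosome 4, 148000722 to 148002079, plus strand. Library 2 was the higher in both quantifications. An antisense gene, Gm13054, overlaps it from 148001091 to 148004014 with 10 and 9 counts, which is small beside Nppa itself.

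Nppb, whose product BNP is used in the clinic as a marker of heart failure, was present at a much lower level. It stood at 43.6 TPM in library 1 and 41.0 TPM in library 2 (42.3 ± 1.82), from 984 and 871 counts, and at 51.3 and 48.5 TPM in the second quantification. Its rank was 1099 of the same genes. The single transcript of 781 bases lies at chromosome 4, 147985788 to 147987205, plus strand, so the starts of Nppb and Nppa are 14934 bases apart. The ratio of Nppa to Nppb was 14.2 in library 1 and 20.5 in library 2 (17.4 ± 4.51). Nppa was 1.36 times as high in library 2 as in library 1, and Nppb was 1.06 times as high in library 1 as in library 2. Nppc gave 3 counts in library 1 and 0 in library 2, or 0.10 and 0 TPM. A count of 0, as in library 2, allows up to 3 counts, which correspond to 0.102 TPM for Nppc there. The 3 counts of library 1 are the value observed and not an upper limit. CNP message was thus at the limit of what this depth can show, and no ratio is given for it. Intervals and limits of this kind cover counting error only.

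Because Nppa was by far the highest of the 8 genes, the 250 bases before its annotated start are shown. They are given on mm10 at chr4:148000472-148000721, plus strand, from the RefSeq table of starts (GRCm38.p6), with capitals for the short motifs found in them on either strand.
Nppa upstream: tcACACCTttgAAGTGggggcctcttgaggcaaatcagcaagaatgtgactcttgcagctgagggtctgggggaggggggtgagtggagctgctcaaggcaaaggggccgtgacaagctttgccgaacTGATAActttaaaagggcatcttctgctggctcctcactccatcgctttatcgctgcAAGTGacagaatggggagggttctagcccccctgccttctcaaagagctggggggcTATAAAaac

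The motifs searched were the TATA box TATAAA, the 4 sites of GATA factors made of GATA after an A or a T and before an A or a G, the NKX core AAGTG, the T-box core AGGTGT, the TEAD site CATTCC, and the serum response factor site known as the CArG box. The window held TATAAA 9 bases before the start, a match held by 12.4% of 32851 windows of the same length, and TGATAA at 122 bases before it, where 26.5% of windows held at least 1 of the 4 GATA sites. It held AAGTG at 239 and 65 bases before the start, which 40.7% of windows hold at least once, and the reverse complement of AGGTGT at 248 bases before it, which 11.8% hold. The matches do not overlap each other. CATTCC was not in these letters, and neither was the CArG box in the form searched, CCWWWWWWGG with W for A or T. Looser forms of the CArG box were not searched. Such matches are common among windows, and they describe the letters only.

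Transcription factors of the Nppa and Nppb genes were read as a list of 16, and their binding to these letters was not tested. All 16 genes of that list had a mean of at least 1 TPM. Tead1, which encodes a factor of the Hippo pathway, was at 54.6 and 52.9 TPM, Gata4, a cardiac zinc finger factor, at 40.5 and 36.9 TPM, and Srf, the serum response factor, at 26.8 and 26.7 TPM. Nkx2-5, the cardiac homeobox gene, stood at 25.9 and 25.1 TPM, and Tbx5, a T-box gene with more product in atria than in ventricles, at 11.6 and 10.9 TPM. Rest, the repressor that holds down both peptide genes in ventricle, was lower, at 4.73 and 4.07 TPM. Tbx3, Tbx2, Nfatc4 and Hey2 were lower still, with means of 3.34, 1.945, 1.615 and 1.285 TPM.

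Among the receptors the CNP receptor led. Npr2 stood at 18.3 TPM in library 1 and 15.9 TPM in library 2 (17.1 ± 1.69), from 1681 and 1492 counts. Npr3, the clearance receptor, was at 9.82 and 9.50 TPM (9.66 ± 0.226), from 1558 and 1499 counts. Npr1, the receptor for ANP and BNP, was the lowest at 5.51 and 5.11 TPM (5.31 ± 0.283), from 618 and 595 counts. The order was the same in both libraries and in both quantifications, the second of which gave 15.2 and 13.6 TPM for Npr2, 9.81 and 9.29 for Npr3, and 5.12 and 4.87 for Npr1. Npr2 held 53.3% ± 1.62 of the summed receptor level, Npr3 30.2% ± 1.36 and Npr1 16.6% ± 0.254. Npr2 was 3.32 times Npr1 in library 1 and 3.11 times in library 2, and Npr3 was 1.78 and 1.86 times Npr1, so the receptor for which the heart made almost no ligand message had the highest transcript level of the 3. In whole tissue, few cells of a type and little RNA per cell cannot be told apart, and these shares say nothing of which cells carried which receptor.

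The receptor genes lie apart from each other, Npr1 at chromosome 3, 90450591 to 90465866, minus strand, Npr2 at chromosome 4, 43631935 to 43651244, plus strand, and Npr3 at chromosome 15, 11839896 to 11907287, minus strand. The proteins encoded by the full-length transcripts of Npr1 and Npr2, of 1057 and 1047 residues, were identical at 62.7% of 1037 aligned positions. The shorter product of Npr3, of 536 residues, was identical to that of Npr1 at 37.7% of 509 aligned positions and to that of Npr2 at 33.7% of 504. Antisense or divergent genes that overlap them carried 0 to 2 counts per library.

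Corin was nearly as high as Nppb. It stood at 41.6 TPM in library 1 and 37.9 TPM in library 2 (39.8 ± 2.57), from 6021 and 5338 counts, and at 41.8 and 43.0 TPM in the second quantification. Furin, which is active in most cell types, was at 29.2 and 27.7 TPM (28.5 ± 1.11), from 4068 and 3616 counts, and at 36.1 and 30.4 TPM in the second. The ratio of Furin to Corin was 0.703 and 0.729 in the first quantification and 0.863 and 0.707 in the second, so Corin was the higher of the pair in every table. Corin lies at chromosome 5, 72300025 to 72504473, minus strand, and Furin at chromosome 7, 80388585 to 80405436, minus strand. Pcsk6, which encodes the convertase that activates corin, was at 11.4 and 12.4 TPM. Of the 8 other convertase genes listed, 3 had a mean of at least 1 TPM: Pcsk6, Mbtps1 and Pcsk7. Genes that overlap Corin or Furin carried at most 12 counts in a library, reached by AU023070, a non-coding gene on the strand of Corin and within its span.

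Between the libraries, Nppa was the gene that differed most. The difference is given as the log2 ratio of library 2 to library 1 in TPM + 1, and as the ratio of expected counts, scaled by library total, with an exact (Clopper-Pearson) 95% interval. With 1 library on each side there is no test, and the interval covers counting error only. Of the 7 genes with at least 10 counts in a library and a mean of at least 1 TPM, 0 were past 2-fold, where 0.603% of 11940 genes tested were past it. The count interval lay above 1 for 1 gene, Nppa, against 12.8% of all genes tested, and below 1 for 2 genes, Corin and Furin, against 10.4%. The median log2 ratio over the 7 genes was -0.09, beside -0.01 over all genes tested, whose SD was 0.26. In TPM, 1 gene was higher in library 2 and 6 were lower, Corin being higher in the second quantification and all 7 with counts scaled by spike-ins. Among the related genes, the 16 transcription factors had 0 intervals above 1 and 5 below, with a median log2 ratio of -0.03, and the 3 convertases had 2 above and 0 below, with a median of 0.12.

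Nppa had a log2 ratio of 0.45 and a count ratio of 1.38 (interval 1.35 to 1.41). Of all genes tested, 282, or 2.36%, had a log2 ratio at or above that of Nppa. It is just outside the middle 95% of genes, which runs from -0.42 to 0.44, and the other 6 genes are inside it. Nppb, the neighbouring ligand gene, had a log2 ratio of -0.09 and a count ratio of 0.951 (0.867 to 1.04). Of the 2 cardiac ligands, only Nppa therefore differed between the libraries by more than counting error, and the interval of Nppa does not overlap that of Nppb.

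The count intervals of all 3 receptors held 1. The count ratio was 1.03 (0.923 to 1.16) for Npr1, 0.953 (0.889 to 1.02) for Npr2 and 1.03 (0.962 to 1.11) for Npr3. In TPM all 3 were lower in library 2, with log2 ratios of -0.09, -0.19 and -0.04. For Npr1 and Npr3 the counts thus point the other way from the TPM, which also depends on the lengths of the transcripts to which reads were given. Corin had a count ratio of 0.952 (0.918 to 0.988) and Furin one of 0.955 (0.913 to 0.999). Scaled by the spike-in total in place of the library total, both ratios were 1.01 and Npr3 was at 1.09 (1.02 to 1.17). In the second quantification the intervals of Corin (0.933 to 1.002) and Furin (0.926 to 1.01) held 1, so their difference is not larger than the choice of scaling. Nppa was above 1 under each of these, from 1.36 with DESeq2 size factors to 1.46 with spike-ins.

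**Figure D2:**
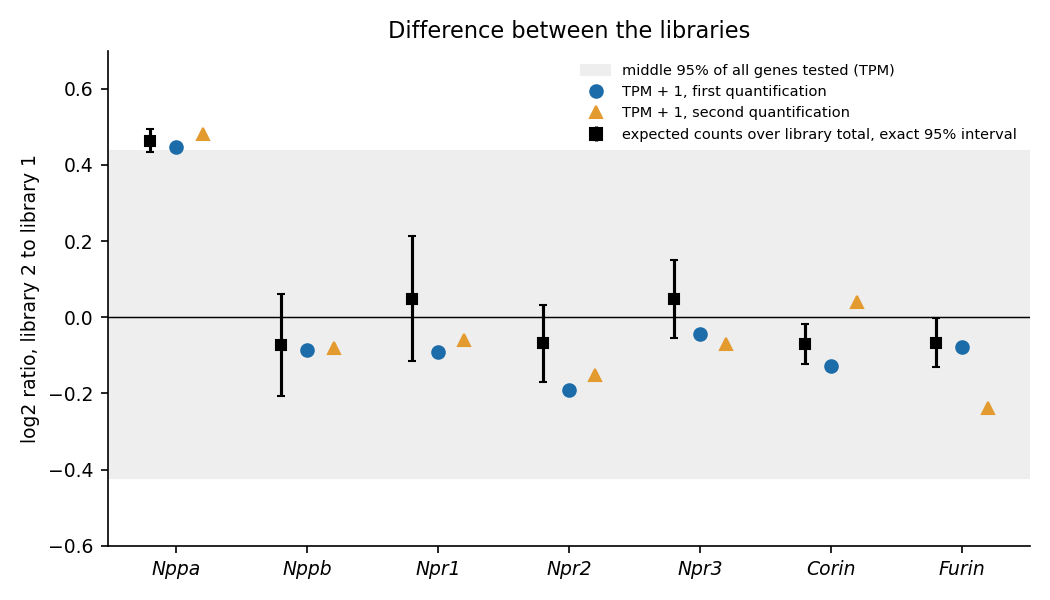
Log2 ratio of library 2 to library 1 for the 7 genes tested: black squares with bars give expected counts over library total with the exact 95% interval, blue circles and orange triangles the TPM + 1 of the first and second quantification, and the grey band the middle 95% of all genes tested. Nppa lies at 0.45 to 0.48 at the upper edge of the band, and the other 6 genes lie between -0.24 and 0.05.

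Some atrial markers were also higher in library 2. Of 11 atrial markers, 7 were higher in library 2 in TPM and 6 had a count interval above 1, while Tbx5 was below 1, and 0 of the 11 were at 0 in both libraries. Over all genes tested, 12.8% had an interval above 1 and 10.4% below. Myl4, the atrial light chain, was at 263 TPM in library 1 and 355 TPM in library 2, and Myl7, the regulatory light chain of atrial muscle, at 251 and 313 TPM. Sln, the atrial regulator of the calcium pump, was at 32.5 and 40.8 TPM, and Kcnj3, a subunit of the muscarinic potassium channel, at 24.0 and 23.3 TPM. Their summed level over the list was 669 TPM in library 1 and 845 TPM in library 2, and the median log2 ratio was 0.32. Of the ventricular markers, 0 of 6 were higher in library 2 in the first quantification and 4 of 6 in the second, with medians of -0.06 and 0.01.

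Nppa was also set against each atrial marker. Nppa per unit of Myl4 was 2.35 in library 1 and 2.38 in library 2, and 2.27 and 2.26 in the second quantification. Per unit of Myl7 it was 2.46 and 2.69, per unit of Kcnj3 25.7 and 36.2, and per unit of the summed atrial level 0.923 and 0.997. Over the 11 markers the ratio of library 2 to library 1 in Nppa per marker was uneven, beside 1.36 for Nppa itself. It ran from 0.974 to 1.09 for Gja5, Myl4, Mybphl, Dkk3, Bmp10, Sln and Myl7. For Kcnj3, Kcnj5, Tbx5 and Nr2f2 it ran from 1.41 to 1.75. These are ratios of TPM, and Gja5 and Nr2f2, the extremes, differed less between the libraries by counts. Their count ratios were 1.11 (0.972 to 1.27) and 0.960 (0.845 to 1.09). The part of atrial tissue in the difference of Nppa was not tested. Other marker lists also differed between the libraries. All 6 adipocyte markers were higher in library 2, with a summed level of 10.6 and 39.4 TPM, and of the lung epithelial markers Scgb1a1 was at 0 and 31.2 TPM while Sftpc was at 0 in both. All 8 fibroblast markers were lower in library 2 in the first quantification, with a median of -0.05 and 3 intervals below 1, and 2 of them were higher in the second. Of 11 endothelial markers 10 were lower, with a median of -0.12, 7 intervals below 1 and 1 above, and 3 were higher in the second. Of the skeletal muscle markers tested, 4 of 4 were higher, with a median of 0.23 and 1 interval above 1. Of the conduction markers tested, 2 of 3 were lower, with a median of -0.32 and 2 intervals below 1. Of 8 cardiomyocyte markers, 3 intervals lay above 1 and 4 below, at count ratios from 0.917 to 1.04. Beside these stand 12.8% above and 10.4% below over all genes tested. The part of these lists in the values of the 8 genes was not tested either.

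**Figure D3:**
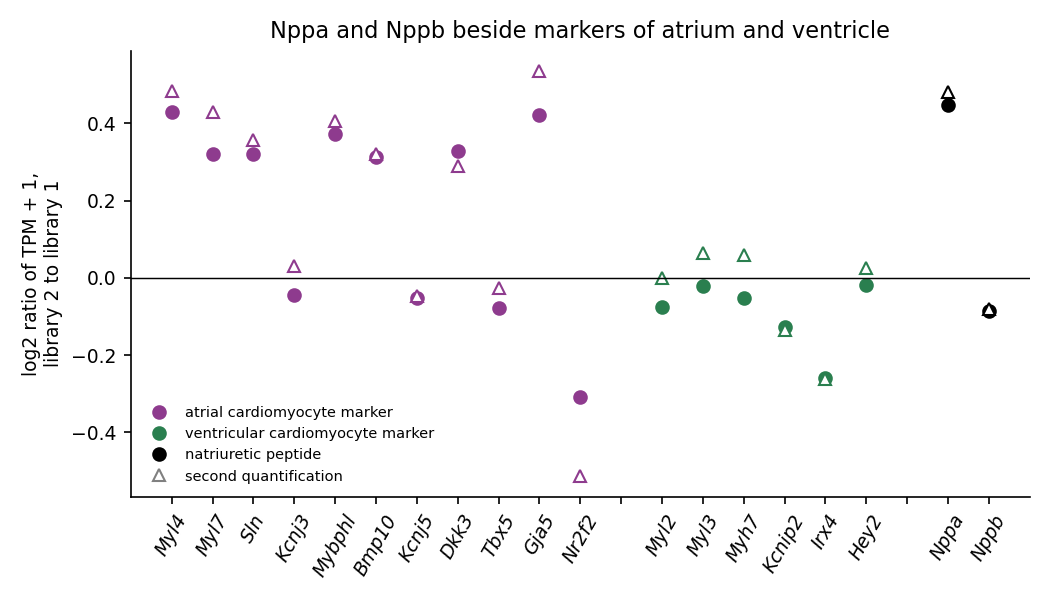
Log2 ratio of library 2 to library 1 in TPM + 1 for 11 atrial markers (purple), 6 ventricular markers (green), Nppa and Nppb (black), with open triangles for the second quantification. Nppa stands at 0.45 and Nppb at -0.09, while the atrial markers run from -0.31 to 0.43 and the ventricular ones from -0.26 to -0.02 in the first quantification.

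The chromosome 4 locus was examined for a difference shared by its genes. Within 100 kb of Nppa lie Nppb and 11 other annotated genes. Of these 11, 6 had a mean of at least 1 TPM, from 2.64 to 228 TPM. Mfn2, which encodes mitofusin, was the highest at 224 and 232 TPM, with a count ratio of 1.03 (1.01 to 1.05). Agtrap, which encodes a protein that binds the angiotensin receptor, had a log2 ratio of 0.44 in TPM but a count ratio of 1.01 (0.946 to 1.09). By counts, then, Nppa differed more between the libraries than these neighbours.

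The transcripts behind each gene level were compared next, since a gene's TPM depends on them. The leading transcript was the same in both libraries and in both quantifications for all 7 detected genes. Nppa and Nppb have a single transcript each. For Npr1 the full receptor message, a coding transcript of 4066 bases, held 82.6% of the gene's level in library 1 and 93.2% in library 2. A transcript of 643 bases annotated as a retained intron held 10.2% and 3.91%, from 10.1 and 3.43 counts.

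For Npr2 the full-length transcript of 3660 bases held 61.6% and 69.7% of the gene's level in the first quantification and 78.1% and 87.2% in the second. The difference lies in a coding transcript of 2106 bases that begins inside the gene and has only 4 bases outside the exons of the full-length one. The first quantification gave this shorter transcript 19.0% and 19.7%, and the second gave it 0.000211% and 0.0324%. The split of Npr2 between these transcripts is therefore uncertain, while the gene level was 17.1 TPM in the first quantification and 14.4 TPM in the second.

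A fragmentary Npr2 transcript of 526 bases lacks an exon that the full-length one has, exon 9, of 75 bases or 25 codons, so that the reading frame is kept. The exon is shown because it is the part of the receptor message that these transcripts differ in, at chr4:43643335-43643409, plus strand.
Npr2 exon 9: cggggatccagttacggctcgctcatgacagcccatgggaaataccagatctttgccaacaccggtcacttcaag

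The transcript without it held 7.71% and 5.15% of the level of Npr2 in the first quantification, from 19.9 and 10.8 counts, and 11.0% and 6.22% in the second. These shares rest on few counts.

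Npr3 was divided between 2 coding transcripts. The long one, of 6892 bases, held 55.2% and 61.6% of its level, and the short one, of 2437 bases, held 38.3% and 29.9%. The second quantification gave them 49.6% and 59.3%, and 28.7% and 24.0%, with another 12.95% and 9.23% for a processed transcript of 3788 bases that the first lists at 0. Their coding sequences differ by 3 bases at the start of exon 7, shown here with the extra bases of the long transcript in capitals on the minus strand of chromosome 15, where the exon of the long transcript lies at 11846298 to 11846385.
Npr3 long: ccttgcaaatcatCAGgtggcctagaagaa
Npr3 short: ccttgcaaatcatgtggcctagaagaa

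The 3′ untranslated regions have 5281 bases in the long transcript and 794 in the short one, so these messages differ by far more bases there than in the coding part. By expected counts, in which a longer transcript weighs more, the long one held 78.4% and 82.7%.

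Corin transcripts had alternative first exons, with start codons 291 bases apart. Corin-201 held 70.6% and 69.2% of its level and Corin-202 held 21.2% and 24.2%, while the second quantification gave 51.7% and 47.5% to Corin-201 and 28.1% and 23.5% to Corin-202. It also gave 7.08% and 12.7% to Corin-207, a shorter coding transcript, and 6.16% and 13.8% to Corin-205, a processed transcript of 467 bases. The share of Corin-205, at 2.58 and 5.93 TPM, rests on few estimated counts, 25.9 and 51.6. The coding parts of the first exons are shown because they are the whole coding difference between Corin-201 and Corin-202. The other 3072 coding bases are identical. The parts shown lie on the minus strand at chr5:72503882-72504148 and chr5:72504371-72504439, and the capitals mark the start codon.
Corin-201: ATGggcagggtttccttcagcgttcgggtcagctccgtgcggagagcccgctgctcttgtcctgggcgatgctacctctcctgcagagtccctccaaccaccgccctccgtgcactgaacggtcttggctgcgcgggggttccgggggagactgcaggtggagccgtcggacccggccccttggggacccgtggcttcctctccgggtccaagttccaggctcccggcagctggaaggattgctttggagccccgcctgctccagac
Corin-202: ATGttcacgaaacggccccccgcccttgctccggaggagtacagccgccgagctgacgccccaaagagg

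The first exon of Corin-201 holds 267 coding bases and that of Corin-202 holds 69, so the encoded proteins have 1113 and 1047 residues and differ at the amino end, the part of corin that lies inside the cell. Corin-201 led in both libraries and in both quantifications, by a wider margin in the first.

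Furin-203 held 96.9% and 97.4% of the level of Furin in the first quantification but 55.6% and 54.4% in the second. The second gave 19.4% and 31.5% to Furin-201, which has another untranslated first exon and the same coding sequence of 793 codons. It gave 23.4% and 11.6% to Furin-208, a short transcript of 378 bases annotated for nonsense-mediated decay. The share of Furin-208 rests on few estimated counts, 55.0 and 20.1. They made 8.43 and 3.52 TPM of the 36.1 and 30.4 TPM of Furin in that quantification. The first quantification listed Furin-201 and Furin-208 at 0. The share given to the first exon of Furin-201 thus depends on the quantification, while Furin-203 led in both libraries under each. The encoded protein does not differ between Furin-201 and Furin-203.

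**Figure D4:**
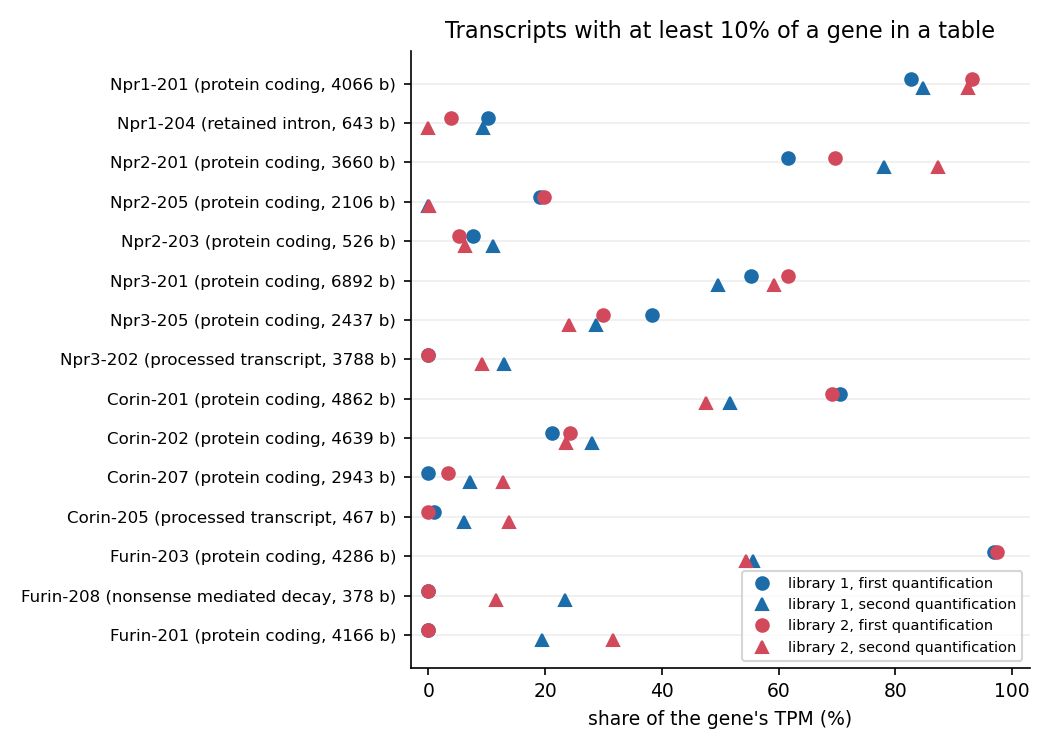
Share of the gene's TPM held by each transcript with at least 10% in any table (percent), for library 1 (blue) and library 2 (red), with circles for the first and triangles for the second quantification. The 2106-base transcript of Npr2, Furin-203 and Furin-201 differ more between the quantifications than between the libraries.

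The pathway around these genes was described from lists of related genes. Peptides that leave the heart are cleared by the receptor of Npr3 or broken down by proteases, and of 6 genes for peptide breakdown 5 had a mean of at least 1 TPM. Ece1, which encodes an endothelin-converting enzyme, was the highest at 34.5 and 33.3 TPM, followed by Ide, the insulin-degrading enzyme that also cuts ANP, at 21.5 and 22.7 TPM. Mme, which encodes neprilysin, the target of sacubitril, was at 4.52 and 7.06 TPM, with a count ratio of 1.21 (1.08 to 1.35). Of the 5, 2 had an interval above 1 (Mme and Ide) and 1 below (Ece1), with a median log2 ratio of 0.10. Among all genes tested, 12.8% had an interval above 1 and 10.4% below. Ostn, which encodes osteocrin, another ligand of the clearance receptor, was at 0.09 and 0.02 TPM.

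Cyclic GMP is also made by the soluble guanylyl cyclases, which nitric oxide activates. Gucy1a1 was at 6.06 and 6.20 TPM and Gucy1b1 at 4.00 and 3.84 TPM, levels near that of Npr1 and below that of Npr2. Of 8 genes of cGMP makers 3 had a mean of at least 1 TPM, and 0 of these had an interval that left out 1. Among 10 genes of cGMP effectors 5 had a mean of at least 1 TPM, again with 0 intervals that left out 1 and a median log2 ratio of -0.02. For all genes tested, 12.8% of intervals lay above 1 and 10.4% below. Prkg1, the cGMP-dependent kinase of heart and vessel, stood at 5.11 and 5.24 TPM, Vasp, one of its substrates, at 7.90 and 7.67 TPM, and Rgs2, a regulator of G protein signals, at 8.02 and 7.90 TPM.

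The list of genes that hydrolyse or export cGMP was longer as chosen. Of 15 listed, 11 had a mean of at least 1 TPM, and of these 3 had an interval above 1 and 2 below, with a median log2 ratio of 0.14. The shares over all genes tested were 12.8% above and 10.4% below. Pde1c, a calcium-stimulated phosphodiesterase, led at 27.7 and 24.8 TPM, followed by Pde3a, which cGMP inhibits, at 20.1 and 18.7 TPM and Pde2a, which cGMP stimulates, at 14.7 and 16.2 TPM. Pde9a, a cGMP-selective enzyme linked to natriuretic peptide signals in heart muscle, was at 1.40 and 2.16 TPM, and Pde5a, the target of sildenafil, at 1.41 and 1.37 TPM. Pde9a and Pde5a were thus below Pde1c, Pde3a and Pde2a in both libraries.

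**Figure D5:**
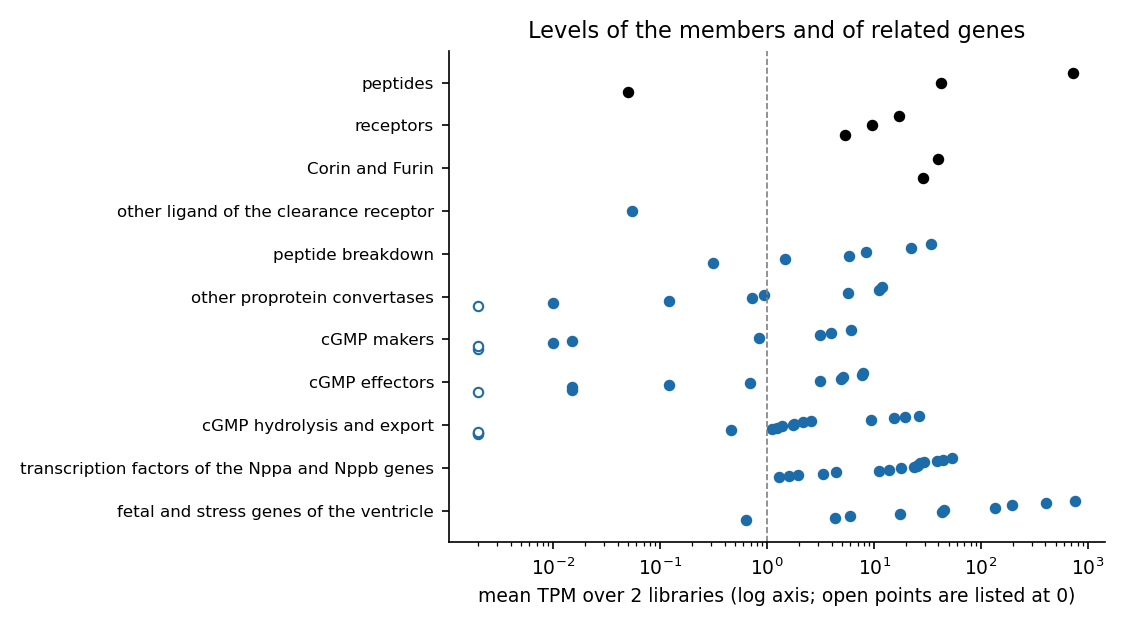
Mean TPM over 2 libraries (log axis, first quantification) of the 8 genes (black) and of each related list (blue), 1 point per gene. Open points at the left edge are genes listed at 0, and a dashed line marks 1 TPM. Npr1, at 5.31 TPM, lies among the cGMP makers and effectors, Npr3 and Npr2, at 9.66 and 17.1 TPM, lie above them, and Nppa, at 730 TPM, lies beside the highest of the ventricular stress genes.

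Nppa and Nppb belong to the genes of the fetal ventricle that adult ventricle expresses again under load. Of 10 other such genes 9 had a mean of at least 1 TPM, and of these 2 had an interval above 1 and 4 below, with a median log2 ratio of -0.05. Over all genes tested the shares were 12.8% above and 10.4% below. Genes with more counts have narrower intervals: of 8 cardiomyocyte markers 3 lay above 1 and 4 below, at count ratios from 0.917 to 1.04. Myh7, the slow myosin heavy chain, was at 768 and 741 TPM, near the level of Nppa in the first quantification. In the second, Myh7 was at 1011 and 1053 TPM, above Nppa at 615 and 859 TPM. Ankrd1, a stretch-responsive nuclear protein of the sarcomere, was at 389 and 421 TPM in the first. Acta1, skeletal actin, was at 206 and 183 TPM. The 2 highest, Myh7 and Ankrd1, differed from Nppa in how the libraries compared, with log2 ratios of -0.05 and 0.11 beside 0.45. In the second quantification these were 0.06 and 0.13 beside 0.48.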

How the data were processed

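Total RNA of 2 heart libraries was sequenced from 300 ng of RNA each, with a directional kit, reduction of ribosomal RNA and ERCC spike-ins, per the labels. The authors deposited expected counts and TPM per gene and transcript (first quantification), and estimated counts and TPM per transcript (second quantification), per the file headers; the build was mm10 with GENCODE M21, per the deposited readme. The aligner, the tool versions and the use of strand in counting were not given in the sources used here. CAST alleles were read against this reference, and what that does to the values was not tested.

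Total expected counts were 39819960 and 37060119 (second quantification 42977135 and 38957328). The log2 ratio sets library 2 over library 1 after adding 1 to each TPM, which understates the ratio of low genes. Genes were compared if either library had 10 or more rounded counts and the mean reached 1 TPM. Exact 95% intervals come from the conditional binomial of rounded counts, scaled by the totals of annotated genes. With 1 group of 2 libraries no p-value was computed. edgeR 4.0.16 (TMM) and DESeq2 1.42.0 (size factors) served only as other scalings. Steps were tested on simulated data. Other tools were scipy 1.17.1, pandas 2.3.3 and numpy 2.4.6 in Python 3.11.15, with Biopython 1.88 and matplotlib 3.10.9.

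The genes and lists were chosen with earlier results of these data known. Named were the 8 genes, their transcripts with at least 10% of the gene's TPM in a library in either quantification, related genes with a mean of at least 1 TPM, and the 4 highest genes of marker lists. Ostn, the atrial markers outside the 4 highest, AU023070, Gm13054 and the neighbours of Nppa were named after their values were seen. The sequence of 1 further item is not reported here.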

Additional observations from a re-analysis of the deposited data

How the results depend on the processing

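Nppa was higher in library 2 under every scaling, pseudocount and quantification tried, with log2 ratios from 0.45 to 0.54. Corin reversed to 0.040 in TPM in the second quantification, where its count ratio stayed below 1, at 0.967. With spike-in scaling Corin reversed to 0.010 and Furin to 0.014, and Nppb (0.0080), Npr1 (0.13), Npr2 (0.012) and Npr3 (0.13) were also above 0. Npr1 and Npr3 were above 0 with TMM and DESeq2 scaling too, at 0.03 to 0.04. The cause was not tested. Genes whose count interval left out 1 numbered 1 in the second quantification. With spike-in scaling 2 lay above 1 and 0 below, and in the second quantification 0 lay below. Spike-in scaling moved the median of all genes to 0.09. The ratio of Npr2 to Npr1 was 2.89 in the second quantification and 3.39 over coding transcripts, that of Npr3 to Npr1 1.91 and 2.01, and that of Furin to Corin 0.785 and 0.747. With each library alone, Nppa to Nppb ran from 14.2 to 20.5, Npr2 to Npr1 from 3.11 to 3.32, Npr3 to Npr1 from 1.78 to 1.86, and Furin to Corin from 0.703 to 0.729. Rescaled to nuclear protein-coding genes, all 8 levels moved, since the total is smaller. Nppc, at 3 and 0 counts, is at the limit of this depth. No paired analysis was possible because the labels give a single group.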
